A study of Homo sapiens with 24 samples.

Results

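The genes described here are regulators of the actin cytoskeleton and of focal adhesions that have been linked to the transcription factor SRF: SRF itself, adhesion plaque proteins, LIM and PDZ scaffolds, crosslinkers, tropomyosins and myosins, and factors of filament assembly and turnover. They were listed by symbol with no measured value in the rule, but with earlier results of these data known. Each was measured by a probe set that the annotation of the array pairs with its symbol alone. Of 45 genes listed, 38 had such a probe set, out of 18374 genes with one in the annotation. FHL1, FLNA, FLNC, TPM3, WDR1, CAP1 and EZR were not analysed here. The contractile genes of smooth muscle were not listed.

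SRF binds a short A/T-rich element, the CArG box, in the regulatory DNA of its target genes, and one of its coactivator families, MRTF, is held by monomeric actin. When actin polymerizes, MRTF is released, enters the nucleus and acts with SRF on genes that code for actin regulators, so that the state of the filaments and the supply of their regulators are coupled. Focal adhesions are the sites where integrins are connected to actin bundles through plaque proteins such as talin, vinculin, paxillin and zyxin, and in carcinoma cells they take part in spreading and migration.

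Affymetrix Human Gene 1.0 ST arrays were used to measure RNA from T-47D, a luminal breast cancer cell line positive for the estrogen receptor. The 24 arrays fall into 8 groups of 3 biological replicates: parental cells, cells transfected with a non-target control RNAi duplex (NTC), and cells transfected with either of 2 duplexes against P-Rex1 (RNAi #1 and #2), each given HRG at 20 ng/ml or its vehicle, PBS, for 6 h. HRG (heregulin) is a ligand of ErbB3 and ErbB4, and P-Rex1, coded by PREX1, is a guanine nucleotide exchange factor for the GTPase Rac. All cells, controls included, were starved of serum before treatment, and silencing was transient and in a single cell line. The authors deposited log2 values normalised by RMA, and a difference of 1 on this scale is a 2-fold change. Differences were tested with limma over all 24 arrays with Benjamini-Hochberg adjustment over 21042 probe sets, and adjusted p-values below are from this fit. A gene was called for HRG, for silencing or for NTC against parental cells where its adjusted p was under 0.05 and it changed more than 1.5-fold, and called for a difference between HRG effects at an adjusted p under 0.05 alone.

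With vehicle, PREX1 averaged 10.60 (SD 0.02, n = 3) in parental cells and 10.42 (SD 0.09, n = 3) in NTC cells, against 8.99 (SD 0.09, n = 3) with #1 and 9.001 (SD 0.03, n = 3) with #2. HRG lowered PREX1 itself at an adjusted p under 0.05 in every cell group, to 9.55 in parental, 9.45 in NTC, 8.53 in #1 and 8.73 in #2 cells. Luminal keratins KRT8, KRT18 and KRT19 had group means from 12.19 to 12.76, whereas the leukocyte gene PTPRC and the fibroblast gene DCN stayed at or under 3.54. Other markers of the same lists were brighter, with CD68 from 6.15 to 7.08, CD3E from 4.13 to 4.40 and COL1A1 from 7.21 to 7.65. The endothelial genes PECAM1, CDH5 and VWF had group means from 3.975 to 4.975. Among 7 fibroblast and smooth muscle markers, whose group means ranged from 3.30 to 9.16, only ACTA2, which codes for smooth muscle actin, was called for HRG, by 1.07 in parental and 1.18 in NTC cells. ACTA2 was also the only one of them called in the differences between HRG effects, at -0.82 with #1 and -0.85 with #2. Of 3 leukocyte markers CD68 was called higher with HRG (0.72 and 0.92), and of 9 luminal markers ESR1 (-0.98 and -1.09) and PGR (-0.79 and -0.82) were called lower. In the differences between HRG effects with #2, ESR1 stood at 0.67 and PGR at 0.51, both called, and CD68 at -0.61 (adjusted p = 0.0694), and with #1 these 3 were not called. The part of these markers in the results below was not tested. The second principal component held 10.9% of the variance. Its 4 lowest scores, from -17.46 to -11.25, were those of parental vehicle 3, NTC HRG 3, #1 vehicle 2 and #2 HRG 3. The next array had -7.08. These 4 arrays, taken by rank and not by a test, are named below as those that stood apart. Without them, 12 members were called for HRG in parental cells, 12 in NTC cells, 8 with #1 and 4 with #2, and 1 and 13 in the differences between HRG effects with #1 and #2, close to the counts given below. In bulk RNA, a change in the share of cells that express a gene and a change in RNA per cell cannot be told apart.

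HRG raised a part of this gene group in both control cell groups and lowered none of it at the threshold. In parental cells 11 of 38 members were called higher and 0 lower, and 27 were not called. The called members were ZYX, VCL, LMO7, FHL2, MYO1E, PDLIM5, MYO10, MYH9, CORO1C, PXN and MICAL2. Over all probe sets tested in parental cells, 2.86% were called higher and 2.41% lower. The median level of the measured members with vehicle in parental cells was 8.56, whereas array medians were 6.04 to 6.18. Shares over all probe sets, here and below, are therefore not those of probe sets of like brightness, which were not computed. In NTC cells, measured on other arrays, the same 11 genes and PDLIM7 were called higher, 12 of 38, and 0 were called lower, against 2.64% and 3.37% of all probe sets. The median log2 difference of the members was 0.25 in parental and 0.27 in NTC cells, and that of all probe sets tested was -0.03 and 0.03. Without the fold threshold, 20 members were higher and 1 lower in parental cells (13.5% and 17.3% of all probe sets), and 23 were higher and 3 lower in NTC cells (13.6% and 17.6%). The changes were therefore spread unevenly over the list, from 1.81 for ZYX in NTC cells to -0.32 for DIAPH3 in the same cells, as the plot of HRG effects by role shows.

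**Figure D1:**
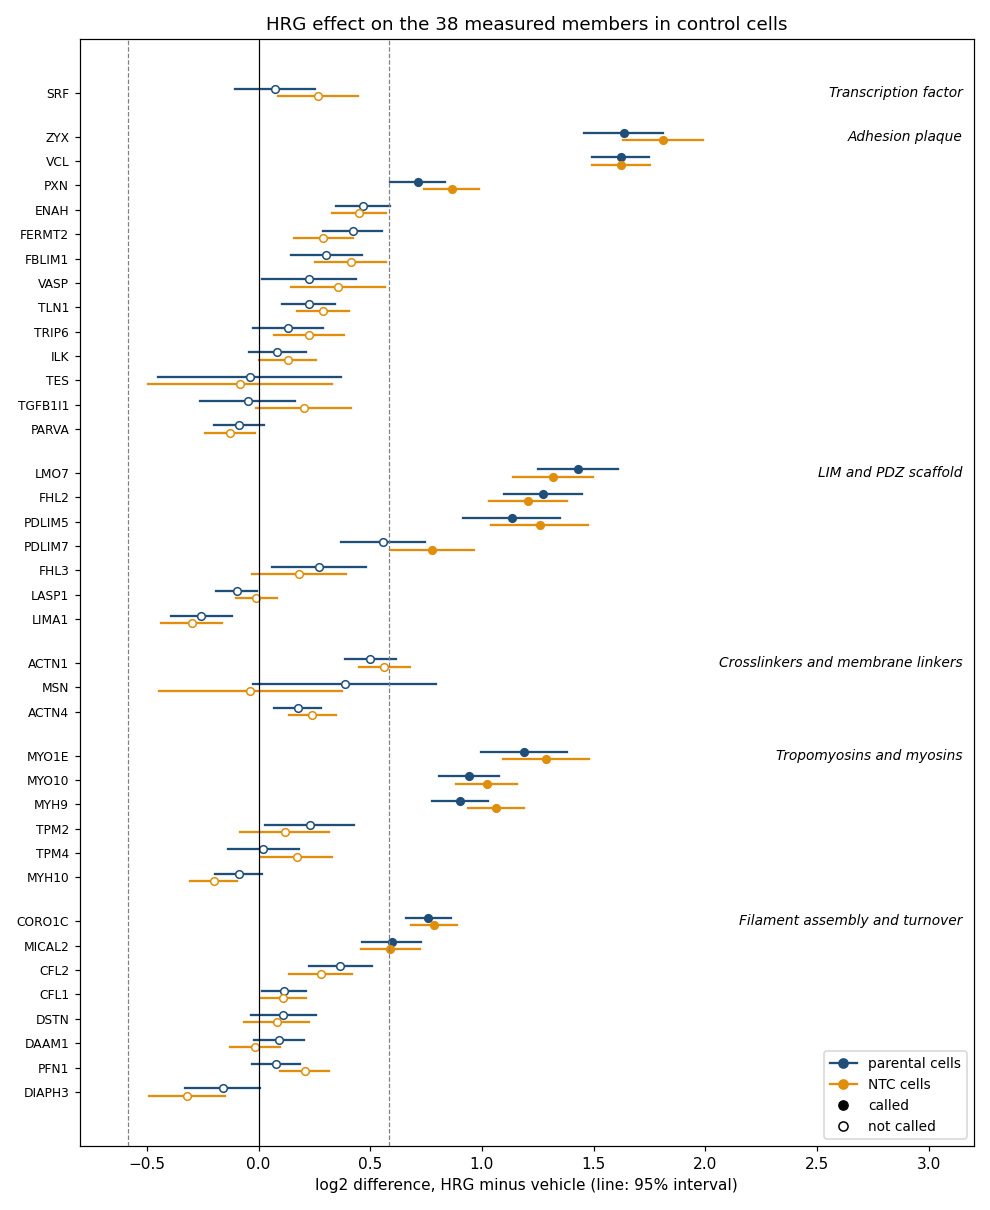
Log2 difference between HRG and vehicle (horizontal axis) for each of the 38 measured genes, grouped by role, in parental cells (blue) and NTC cells (orange), 3 arrays per group. Points are estimates of the limma fit and lines their 95% intervals; filled points were called, dashed lines mark a 1.5-fold change, and all filled points lie on the side of higher expression with HRG.

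The level of SRF mRNA moved little. SRF read 8.77, 8.69 and 8.83 with vehicle and 8.76, 8.83 and 8.93 with HRG in parental cells, and 8.72, 8.78 and 8.74 with vehicle and 8.87, 9.01 and 9.16 with HRG in NTC cells. With the duplexes it read 8.69, 8.64 and 8.84 with vehicle and 8.79, 8.89 and 9.03 with HRG for #1, and 8.84, 8.72 and 8.78 with vehicle and 8.76, 8.98 and 9.13 with HRG for #2. Vehicle and HRG arrays overlapped in parental and both silenced cell groups and were apart in NTC cells. The HRG difference was 0.07 in parental cells (SE 0.09, n = 3 arrays per group, adjusted p = 0.601) and 0.27 in NTC cells (adjusted p = 0.0223), under the fold threshold in both. Relative to the controls, the HRG effect on SRF differed by 0.01 (95% interval -0.21 to 0.23) for #1 and 0.01 (-0.21 to 0.23) for #2.

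The promoters bear on this list because SRF acts through the CArG box. In the RefSeq windows of GRCh38.p14 that run from 250 bases before to 50 bases after each annotated start, matched for 37 of the 38 measured members with 66 windows, 8 genes held at least one CArG box, 21.6%, against 438 of 27305 genes, 1.60%, in the whole table. By window, 10 of 66 held a box, 15.2%, against 454 of 35116, 1.29%. The members were listed for a link to SRF, and SRF itself is among the 8. The choice of the list thus favoured a share above that of all genes, which is not independent evidence. The box was searched on both strands, which for this palindromic pattern give the same sites. Among the 11 genes called in both control groups, 2 held a box, FHL2 and MYO1E, and among the other 26 matched genes 6 did, namely SRF, ACTN1, FBLIM1, TES, TGFB1I1 and TPM4. No box was found in these windows of VCL or ZYX, the genes with the largest HRG differences, which says nothing of sites elsewhere in the genes. The stretches of the called genes that hold a box, and that of SRF itself, are shown 5′ to 3′ on the strand of the gene with the boxes in capitals. They lie at chr2:105438560-105438659 and chr2:105399056-105399155 (both minus strand) for FHL2, at chr15:59372872-59372947 (minus strand) for MYO1E and at chr6:43171194-43171268 (plus strand) for SRF.
FHL2, upstream start: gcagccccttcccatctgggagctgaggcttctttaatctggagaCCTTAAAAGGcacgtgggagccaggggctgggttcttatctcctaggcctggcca
FHL2, downstream start: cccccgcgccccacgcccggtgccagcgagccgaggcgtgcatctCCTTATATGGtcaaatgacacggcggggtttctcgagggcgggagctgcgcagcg
MYO1E: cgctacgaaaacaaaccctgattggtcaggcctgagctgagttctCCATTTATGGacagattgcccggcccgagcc
SRF: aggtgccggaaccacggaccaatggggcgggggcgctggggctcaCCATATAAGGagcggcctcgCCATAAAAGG
The first base of the box lies 101 and 59 bases before the start in FHL2 and 31 bases before it in MYO1E, and SRF holds 2 boxes at 30 and 10 bases before its start. FHL2 and MYO1E are members that rose with HRG in both control groups, whereas SRF, ACTN1, FBLIM1, TES, TGFB1I1 and TPM4 were not called in either. A match of letters is a description of the window and not evidence of binding in these cells.

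Of 13 adhesion plaque genes, 3 were called higher in both control groups, ZYX, VCL and PXN, and the other 10 were not called in either. Zyxin, the product of ZYX, is a LIM protein that is recruited to tensed filaments. ZYX read 7.82, 7.95 and 7.71 with vehicle and 9.34, 9.39 and 9.65 with HRG in parental cells, and 7.84, 7.80 and 7.70 with vehicle and 9.41, 9.65 and 9.70 with HRG in NTC cells. In silenced cells ZYX went from 7.77, 7.70 and 7.62 to 9.28, 9.27 and 9.40 with #1 and from 7.89, 7.84 and 7.97 to 8.99, 8.94 and 9.12 with #2. All HRG arrays lay above all vehicle arrays, and the HRG arrays of #2 were the lowest of the HRG arrays. The HRG effect was 3.1-fold in parental cells (log2 difference 1.63, SE 0.09, n = 3 arrays per group, adjusted p = 4.22e-12) and 3.51-fold in NTC cells.

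Vinculin, coded by VCL, connects talin to actin and reinforces adhesions under load. VCL values were 9.53, 9.51 and 9.54 with vehicle and 11.09, 11.07 and 11.28 with HRG in parental cells, and 9.60, 9.54 and 9.51 with vehicle and 11.14, 11.21 and 11.18 with HRG in NTC cells. With #1 they were 9.50, 9.46 and 9.49 with vehicle and 10.80, 10.98 and 10.92 with HRG, and with #2 9.52, 9.42 and 9.64 with vehicle and 10.69, 10.65 and 10.75 with HRG. The 4 vehicle groups lay close together, and the HRG arrays stepped down from the controls to #1 and to #2 without overlap between controls and either duplex. The fold change was 3.07 in parental (log2 difference 1.62, SE 0.06, n = 3 arrays per group, adjusted p = 8.98e-14) and 3.08 in NTC cells. Paxillin (PXN), a docking protein for adhesion kinases, read 8.68, 8.55 and 8.55 with vehicle and 9.27, 9.25 and 9.40 with HRG in parental cells and 8.49, 8.46 and 8.43 with vehicle and 9.31, 9.35 and 9.30 with HRG in NTC cells. Its values were 8.59, 8.54 and 8.54 with vehicle and 9.10, 9.06 and 9.18 with HRG with #1 and 8.39, 8.24 and 8.36 with vehicle and 8.76, 8.69 and 8.88 with HRG with #2. PXN was separated by HRG in every cell group, and both its vehicle and its HRG arrays were lowest with #2. PXN rose 1.64-fold in parental (log2 difference 0.71, SE 0.06, n = 3 arrays per group, adjusted p = 4.37e-09) and 1.82-fold in NTC cells, and a second probe set of PXN gave smaller differences of 0.56, under the fold threshold, and 0.72, which was called.

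The other 10 plaque genes had HRG differences from -0.09 (PARVA, parvin, which binds integrin-linked kinase) to 0.47 (ENAH) in parental cells. ENAH and VASP belong to the Ena/VASP family, which promotes elongation of filaments at their barbed ends. ENAH was higher by 0.47 in parental (SE 0.06, n = 3 arrays per group, adjusted p = 1.48e-06) and by 0.45 in NTC cells (adjusted p = 2.26e-06), below the fold threshold, and VASP differed by 0.22 and 0.36. FERMT2, a kindlin that activates integrins, differed by 0.42 (adjusted p = 2.15e-05) in parental and 0.29 in NTC cells. Talin, coded by TLN1, differed by 0.22 and 0.29, and ILK by 0.08 and 0.13. TES, with a standard error of 0.20, differed by -0.04 and -0.08, which its spread does not resolve.

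Among the LIM and PDZ scaffolds, 7 of 8 listed genes were measured, and LMO7, FHL2 and PDLIM5 were called in both control groups. LMO7 codes for a LIM domain protein of cell junctions that binds the adherens junction protein afadin. LMO7 read 7.93, 7.91 and 7.74 with vehicle and 9.15, 9.27 and 9.46 with HRG in parental cells, and 7.96, 7.99 and 7.87 with vehicle and 9.20, 9.28 and 9.29 with HRG in NTC cells. With #1 LMO7 went from 7.91, 7.65 and 7.81 to 8.95, 9.11 and 9.23, and with #2 from 8.0002, 7.75 and 7.89 to 8.37, 8.45 and 8.49. HRG and vehicle were apart in each cell group, and with HRG all #2 arrays lay below all arrays of the other 3 cell groups. The parental effect was 2.7-fold (log2 difference 1.43, SE 0.09, n = 3 arrays per group, adjusted p = 3.75e-11).

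FHL2, made of LIM domains, is found at adhesions and in the nucleus. FHL2 read 8.53, 8.65 and 8.40 with vehicle and 9.78, 9.82 and 9.81 with HRG in parental cells and 8.58, 8.83 and 8.57 with vehicle and 9.80, 9.98 and 9.82 with HRG in NTC cells. With #1 the values were 8.60, 8.78 and 8.45 with vehicle and 9.56, 9.75 and 9.57 with HRG, and with #2 they were 8.51, 8.58 and 8.48 with vehicle and 9.39, 9.46 and 9.49 with HRG. FHL2 was separated by HRG in all cell groups, with fold changes of 2.42 in parental (log2 difference 1.27, SE 0.08, n = 3 arrays per group, adjusted p = 1.27e-10) and 2.31 in NTC cells. PDLIM5, a PDZ and LIM protein of Z-discs and stress fibres, read 8.42, 8.18 and 8.16 with vehicle and 9.23, 9.30 and 9.64 with HRG in parental cells, and 8.31, 8.24 and 8.19 with vehicle and 9.35, 9.56 and 9.60 with HRG in NTC cells. In silenced cells PDLIM5 read 8.29, 8.06 and 8.38 with vehicle and 9.19, 9.32 and 9.51 with HRG with #1, and 8.32, 8.27 and 8.39 with vehicle and 8.95, 9.01 and 9.11 with HRG with #2. Every HRG array of PDLIM5 was above every vehicle array, and the effect was 2.19-fold in parental (log2 difference 1.13, SE 0.10, n = 3 arrays per group, adjusted p = 2.11e-08) and 2.39-fold in NTC cells.

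PDLIM7, a relative of PDLIM5, was called in NTC cells (0.78, adjusted p = 5.48e-07) and lay under the fold threshold in parental cells (0.56, adjusted p = 4.23e-05). LIMA1, which codes for EPLIN, a protein that bundles filaments and slows their disassembly, was the one scaffold lower with HRG at an adjusted p under 0.05 in both control groups, at -0.26 and -0.30, which is under the fold threshold. LASP1 differed by -0.10 and -0.01 and FHL3 by 0.27 and 0.18. Of the crosslinkers and membrane linkers, 3 of 6 listed genes were measured and 0 were called. ACTN1, coding for alpha-actinin, which bundles stress fibres, was higher by 0.50 in parental (SE 0.06, n = 3 arrays per group, adjusted p = 3.05e-07) and 0.56 in NTC cells (adjusted p = 5.40e-08). Moesin (MSN), which ties filaments to the membrane, differed by 0.39 and -0.04 with a standard error of 0.20, and its arrays overlapped.

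Among 6 measured tropomyosins and myosins of 7 listed, 3 were called in both control groups, all of them myosins, and neither TPM2 nor TPM4 was called. MYO1E codes for a class I myosin that connects membranes to actin. MYO1E read 7.56, 7.43 and 7.45 with vehicle and 8.55, 8.55 and 8.92 with HRG in parental cells, and 7.48, 7.41 and 7.55 with vehicle and 8.68, 8.71 and 8.92 with HRG in NTC cells. With #1 MYO1E read 7.55, 7.35 and 7.64 with vehicle and 8.30, 8.42 and 8.48 with HRG, and with #2 7.54, 7.42 and 7.57 with vehicle and 7.91, 8.09 and 8.002 with HRG. MYO1E was apart in every cell group, and its HRG arrays with either duplex lay below those of both controls. The effect was 2.28-fold in parental (log2 difference 1.19, SE 0.09, n = 3 arrays per group, adjusted p = 1.72e-09) and 2.44-fold in NTC cells.

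MYO10, a myosin carried to the tips of filopodia, read 7.87, 7.85 and 7.80 with vehicle and 8.78, 8.71 and 8.85 with HRG in parental cells and 7.78, 7.80 and 7.78 with vehicle and 8.80, 8.75 and 8.86 with HRG in NTC cells. With #1 MYO10 read 7.83, 7.69 and 7.77 with vehicle and 8.47, 8.54 and 8.59 with HRG, and with #2 7.66, 7.43 and 7.73 with vehicle and 8.11, 8.05 and 8.08 with HRG. MYO10 rose 1.92-fold in parental (log2 difference 0.94, SE 0.06, n = 3 arrays per group, adjusted p = 2.58e-10) and 2.03-fold in NTC cells, and all 3 vehicle arrays of #2 lay below all other vehicle arrays except 1 of #1. MYH9 codes for the heavy chain of nonmuscle myosin IIA, the motor that contracts stress fibres. MYH9 values were 10.11, 10.04 and 9.89 with vehicle and 10.89, 10.86 and 10.9998 with HRG in parental cells, and 9.98, 9.97 and 9.91 with vehicle and 10.99, 11.003 and 11.05 with HRG in NTC cells. In silenced cells they were 10.05, 9.88 and 9.93 with vehicle and 10.67, 10.59 and 10.68 with HRG with #1, and 10.03, 9.93 and 9.96 with vehicle and 10.32, 10.33 and 10.41 with HRG with #2. With HRG, the arrays of MYH9 fell into 3 ranges that did not overlap: the controls highest, #1 between and #2 lowest. Its fold change was 1.87 in parental (log2 difference 0.90, SE 0.06, n = 3 arrays per group, adjusted p = 1.52e-10) and 2.09 in NTC cells.

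In the group for filament assembly and turnover, 8 of 10 listed genes were measured and 2, CORO1C and MICAL2, were called in both control groups. Coronin 1C, coded by CORO1C, binds branched filaments at the cell edge. CORO1C read 11.27, 11.22 and 11.20 with vehicle and 11.98, 11.97 and 12.02 with HRG in parental cells and 11.23, 11.20 and 11.22 with vehicle and 11.97, 11.97 and 12.06 with HRG in NTC cells. With #1 it read 11.27, 11.10 and 11.26 with vehicle and 11.76, 11.79 and 11.85 with HRG, and with #2 11.19, 11.13 and 11.14 with vehicle and 11.52, 11.52 and 11.55 with HRG. CORO1C rose 1.69-fold in parental (log2 difference 0.76, SE 0.05, n = 3 arrays per group, adjusted p = 1.04e-10) and 1.72-fold in NTC cells. The other 6 members of this role, which include the cofilins, profilin 1 (PFN1) and 2 formins, were not called, and ranged in parental cells from -0.16 for the formin DIAPH3 to 0.37 for CFL2.

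MICAL2 codes for an enzyme that oxidizes actin and promotes disassembly of filaments, and that is known to act on SRF through nuclear actin. MICAL2 read 6.66, 6.64 and 6.78 with vehicle and 7.37, 7.20 and 7.29 with HRG in parental cells, and 6.88, 6.64 and 6.70 with vehicle and 7.35, 7.33 and 7.31 with HRG in NTC cells. With #1 it read 6.87, 6.93 and 6.85 with vehicle and 6.85, 6.71 and 6.83 with HRG, and with #2 6.71, 6.62 and 6.76 with vehicle and 6.56, 6.52 and 6.49 with HRG. The HRG arrays of the controls were above all vehicle arrays, whereas those of #2 lay below the vehicle arrays of the same cells, and those of #1 lay below or level with the lowest of theirs. Its rise of 1.51-fold in parental (log2 difference 0.60, SE 0.06, n = 3 arrays per group, adjusted p = 1.85e-07) and 1.51-fold in NTC cells was just past the fold threshold. It fell under that threshold in parental cells without parental vehicle 1 (0.58), parental vehicle 2 (0.57) or parental HRG 1 (0.56), and in NTC cells without NTC vehicle 2 (0.54), NTC vehicle 3 (0.57) or NTC HRG 1 (0.58). Of members not called for HRG in parental cells, PDLIM7 at 0.56 was the nearest to the threshold and ACTN1 at 0.50 the next.

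**Figure D2:**
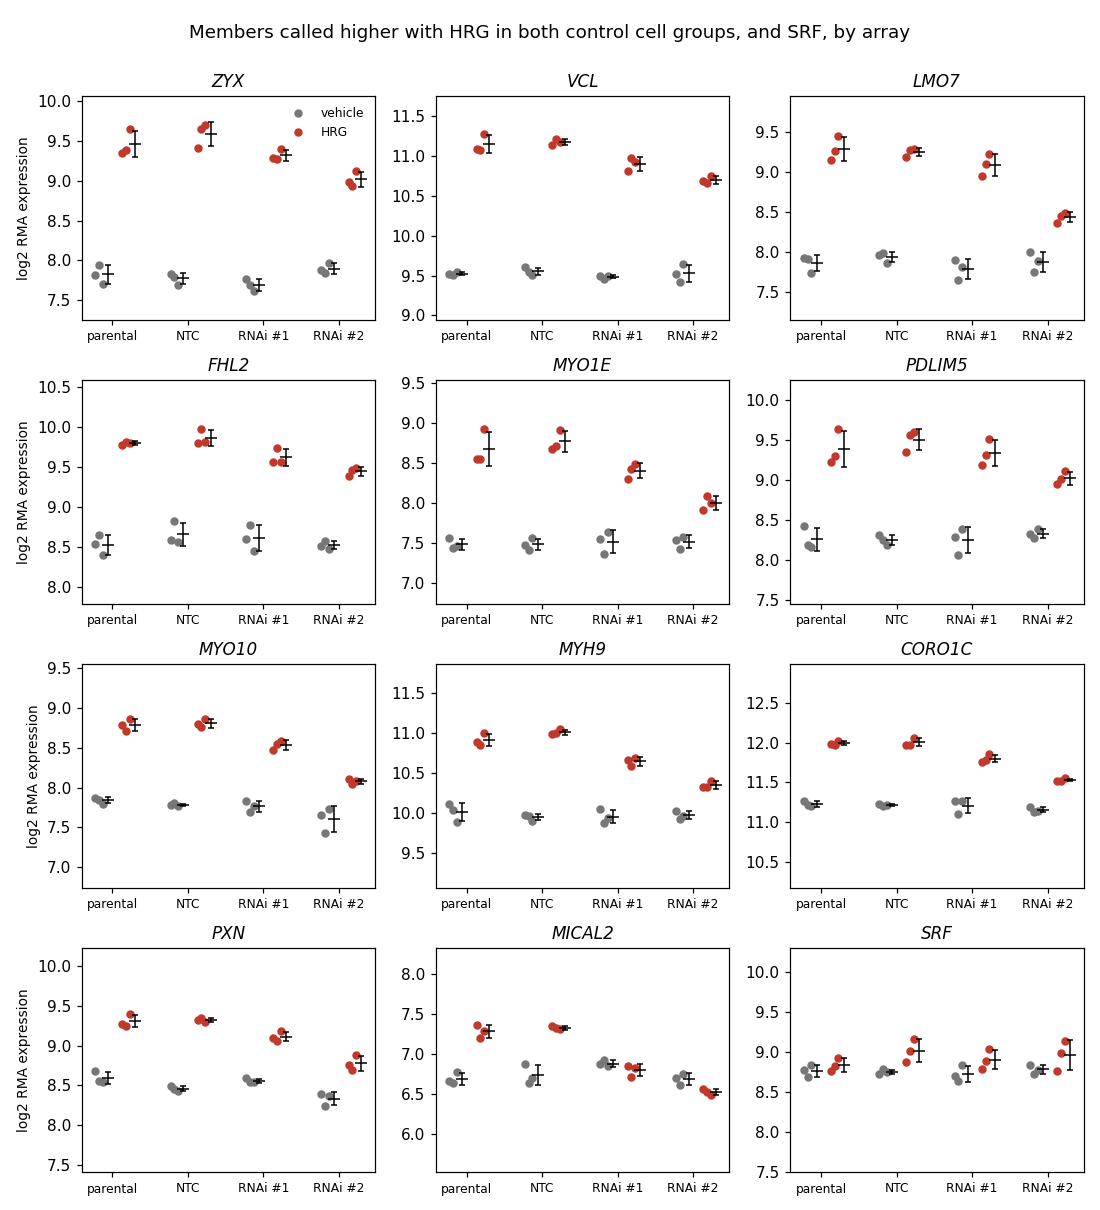
Log2 RMA expression (vertical axis, the same span in each panel) of the 11 genes called higher with HRG in both control groups and of SRF. Points are single arrays with vehicle (grey) or HRG (red) in parental, NTC, RNAi #1 and RNAi #2 cells, and black marks give the mean ± SD of 3 arrays; HRG values of MYH9 step down from the controls to #1 and #2, and those of SRF overlap with vehicle in 3 of the 4 cell groups.

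Several close relatives within the list had HRG effects whose intervals lay apart. In parental cells the 95% interval of the HRG difference was 0.78 to 1.03 for MYH9 and -0.19 to 0.01 for MYH10, the heavy chains of nonmuscle myosins IIA and IIB. It was 0.59 to 0.83 for PXN and -0.26 to 0.16 for TGFB1I1, its relative also known as Hic-5. For the zyxin family it was 1.46 to 1.81 for ZYX and -0.02 to 0.29 for TRIP6. The FHL proteins gave 1.10 to 1.45 for FHL2 and 0.06 to 0.48 for FHL3, and the alpha-actinins 0.38 to 0.61 for ACTN1 and 0.07 to 0.28 for ACTN4. In each of these pairs the intervals did not overlap in parental cells or in NTC cells, where they were 0.94 to 1.19 and -0.30 to -0.10 for the myosins and 0.45 to 0.68 and 0.13 to 0.34 for the actinins. The cofilin family was less divided in parental cells, with 0.22 to 0.51 for CFL2, 0.01 to 0.21 for CFL1 and -0.03 to 0.26 for DSTN. There the intervals of CFL2 and CFL1 narrowly missed each other, and that of DSTN overlapped both. Other measured relatives are not among the pairs shown. Their HRG differences in parental cells were 0.23 for TPM2 and 0.02 for TPM4, 0.47 for ENAH and 0.22 for VASP, and 1.13 for PDLIM5 and 0.56 for PDLIM7. Some relatives were dimmer than their partners, and RMA compresses changes of dim probe sets. With vehicle in parental cells TGFB1I1 averaged 6.42 and PXN 8.59, FHL3 6.67 and FHL2 8.53, and MYH10 8.88 and MYH9 10.01. TRIP6 (7.67) and ZYX (7.83) were closer in level, as were ACTN4 (11.38) and ACTN1 (11.22). Differences between genes were not tested.

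**Figure D3:**
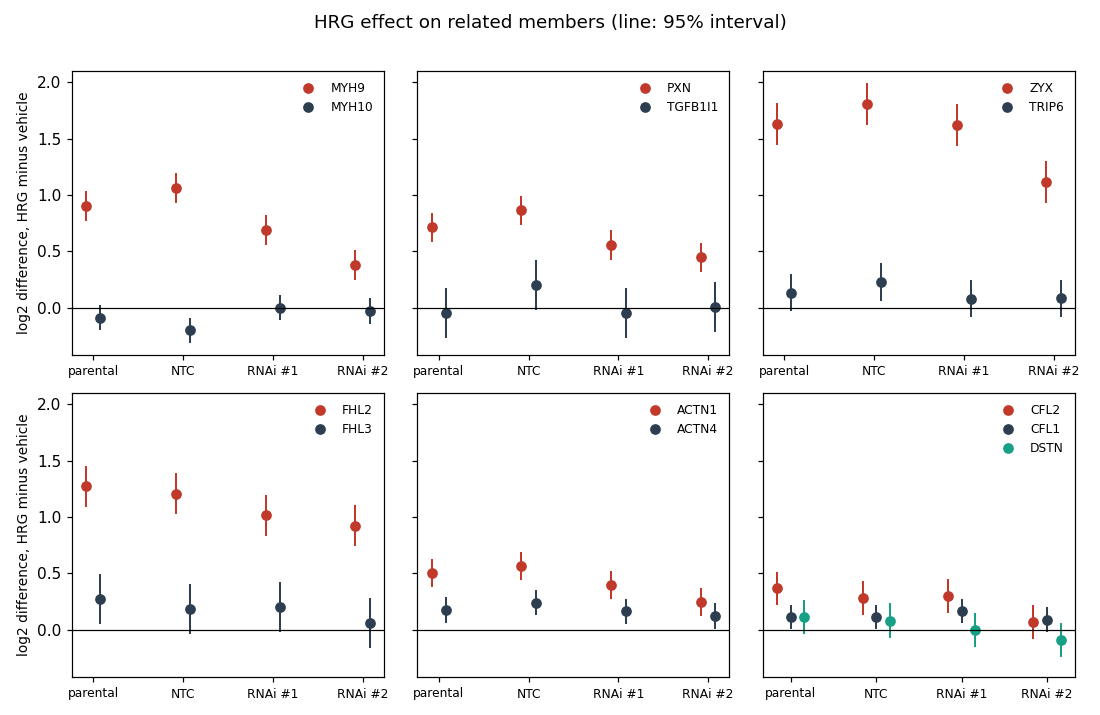
Log2 difference between HRG and vehicle (vertical axis) for related genes in the 4 cell groups, as estimates of the limma fit with 95% intervals over 3 arrays per group. MYH9, PXN, ZYX, FHL2 and ACTN1 (red) lie above their relatives (dark) in parental and NTC cells, while the estimates for CFL2, CFL1 and DSTN (green) lie closer together.

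The question posed by the silenced cells was which HRG responses depend on P-Rex1. With #1, 9 of 38 members were called higher with HRG and 0 lower (2.52% and 1.15% of all probe sets), and with #2, 4 were called higher and 0 lower (1.07% and 0.656%). Of the 11 genes called in both control groups, all but PXN and MICAL2 were called with #1, and only VCL, ZYX, FHL2 and PDLIM5 with #2. Without the fold threshold the counts were 20 higher and 1 lower with #1 (14.9% and 12.4% of all probe sets) and 12 higher and 2 lower with #2 (8.2% and 7.64%). The call of CORO1C with #1 (0.59) fell under the fold threshold without #1 vehicle 2 (0.54) or #1 HRG 3 (0.56). The medians over the members were 0.18 with #1 and 0.09 with #2, beside -0.03 and -0.01 over all probe sets. Crossing a threshold in one cell group and not in another does not test the difference, so the HRG effect with each duplex was set against the mean HRG effect of parental and NTC cells.

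With #2 the HRG effect, taken with its sign, was called lower than in the controls for 14 of 38 members and higher for 0. Of all probe sets, 1.85% were called lower and 2.1% higher in this difference. The members were LMO7, MICAL2, MYO1E, MYH9, ZYX, MYO10, PDLIM5, VCL, PDLIM7, CORO1C, ENAH, PXN, DAAM1 and ACTN1. The differences ran from -0.82 for LMO7 (SE 0.11, n = 3 arrays per group, adjusted p = 5.04e-05) to -0.28 for ACTN1 (SE 0.07, n = 3 arrays per group, adjusted p = 0.0181). By role, they comprised 4 of 13 plaque genes, 3 of 7 scaffolds, 1 of 3 crosslinkers, all 3 of the called myosins, and MICAL2, CORO1C and DAAM1 of 8 assembly and turnover genes. The median difference over the 38 members was -0.21 with #2 and -0.10 with #1, and 0.0017 and 0.0071 over all probe sets. HRG calls were fewer with #2 in the whole series as well. In either direction 1.73% of all probe sets were called with #2, against 5.27% in parental and 6.01% in NTC cells. Whether the members differ in this from other genes raised by HRG was not tested. Of the 11 genes called in both controls, 10 were among these 14 and FHL2 was not (-0.32, adjusted p = 0.0927). The second probe set of PXN was not called (-0.23, adjusted p = 0.295). All 11 had differences below 0 with each duplex, but they were picked on control arrays that also enter these differences, so that this count is not independent evidence.

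The part of the control effect that was left is given as a description, since its size was not compared between genes. With #2, VCL kept 72.3% and FHL2 74.5% of the mean log2 effect of the controls, ZYX 65.0% and PXN 56.5%, whereas LMO7 kept 40.6%, MYO1E 39.5% and MYH9 38.4%. With #1 LMO7 kept 94.99%, ZYX 94.1%, VCL 87.4%, FHL2 81.8%, MYO1E 71.6%, MYH9 70.5% and PXN 70.3%. MICAL2 did not rise with either duplex: its HRG difference was -0.09 with #1 and -0.17 with #2, against 0.60 and 0.59 in the controls. In the difference between HRG effects MICAL2 stood at -0.68 with #1 (SE 0.08, n = 3 arrays per group, adjusted p = 0.000344) and at -0.76 with #2 (adjusted p = 6.04e-06). With #1 MICAL2 was the only member called, 1 of 38, and it was lower, where 0.442% of all probe sets were lower. That count was 4 with the replicate number as a block, 3 with trend and robust variance, with median centring or without dim probe sets, and 2 with NTC cells alone as reference. It was 3 without parental vehicle 1 and 2 without parental HRG 1. MYH9 and ENAH missed the threshold with #1, at -0.29 (95% interval -0.44 to -0.14, adjusted p = 0.0571) and -0.27 (-0.42 to -0.13, adjusted p = 0.0611).

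**Figure D4:**
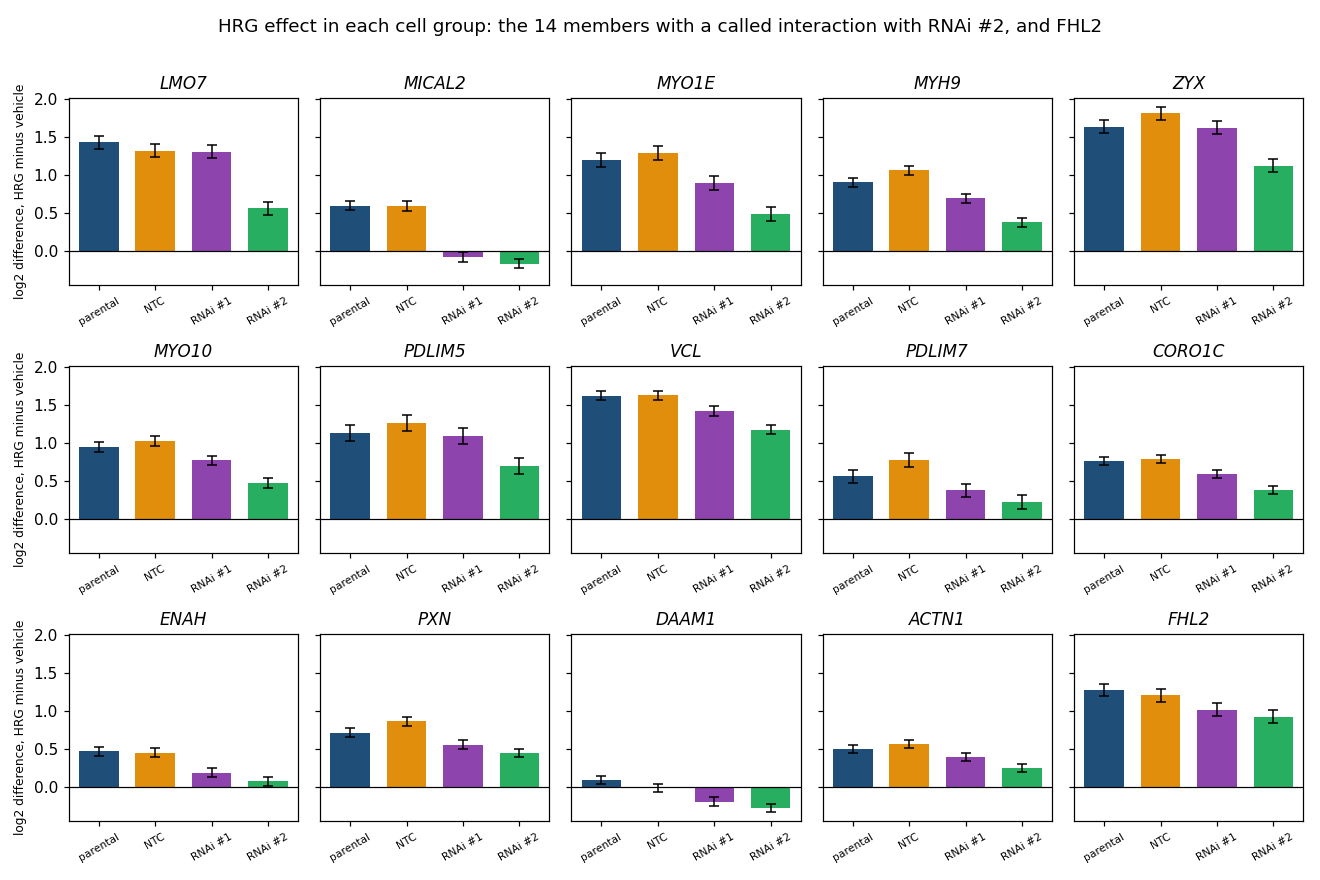
Log2 difference between HRG and vehicle (vertical axis) in parental, NTC, RNAi #1 and RNAi #2 cells for the 14 genes whose HRG effect, taken with its sign, was lower with #2 than in the controls, and for FHL2. Bars are estimates of the limma fit and lines ± 1 SE over 3 arrays per group; the bar of #2 is the lowest in every panel, and MICAL2 is below 0 with both duplexes.

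Among the 14 genes, 4 were not called for HRG in both controls: PDLIM7, ENAH, ACTN1 and DAAM1. DAAM1, a formin of the planar cell polarity pathway, differed little with HRG in the controls (0.09 and -0.02) and was lower with HRG in silenced cells, at -0.19 with #1 (adjusted p = 0.00992) and -0.28 with #2 (adjusted p = 0.000785), both under the fold threshold. DAAM1 values went from 9.67, 9.58 and 9.52 with vehicle to 9.35, 9.31 and 9.28 with HRG in #2 cells, without overlap. ENAH was near its vehicle level in #2 cells, with 9.89, 9.80 and 9.72 for vehicle and 9.91, 9.84 and 9.88 for HRG, which overlap. Several of the calls with #2 were lost on leaving out a single array, which also leaves fewer arrays in its group. For PDLIM5 the difference was -0.50 with all arrays and from -0.50 to -0.46 in the refits that lost the call. PDLIM5 (adjusted p = 0.0277 with all arrays) had an adjusted p over 0.05 without #2 vehicle 1 (0.0560), #2 vehicle 3 (0.0801), #2 HRG 1 (0.0913) or #2 HRG 2 (0.0532), PDLIM7 without #2 vehicle 1 (0.0574), #2 vehicle 3 (0.0601), #2 HRG 2 (0.0660) or #2 HRG 3 (0.0675) and without the 4 arrays that stood apart (0.0607), and ACTN1 without #2 vehicle 3 (0.0737) or #2 HRG 2 (0.0583), where the values are adjusted p-values of limma. DAAM1 had an adjusted p of 0.0702 when NTC cells alone were the reference.

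The duplexes lowered PREX1 to like levels, and their HRG effects on the members were compared directly. The HRG effect of #2 was below that of #1 for all 11 genes called in both controls by their brightest probe sets, whereas the second probe set of PXN had 0.41 with #2 and 0.35 with #1. In the whole series HRG calls were fewer with #2 as well, at 1.73% of all probe sets in either direction against 3.67% with #1. Whether the 11 genes differ in this from other genes raised by HRG was not tested. LMO7 alone of 38 members was called, and lower, in a comparison in which 0.0665% of all probe sets were called in either direction. LMO7 differed by -0.75 between the duplexes (SE 0.12, n = 3 arrays per group, adjusted p = 0.0133). This call was lost without #1 vehicle 2 (adjusted p = 0.0543), #1 HRG 2 (0.0554), #1 HRG 3 (0.0655) or #2 vehicle 1 (0.0580), and when the 4 arrays that stood apart were left out (0.0647) or when the arrays of the 2 duplexes were fitted alone (0.0726). ZYX came next in size, at -0.50 (95% interval -0.75 to -0.25, adjusted p = 0.186), and MYH9 stood at -0.31 (-0.49 to -0.14, adjusted p = 0.316). PDLIM5 and MYO1E lay between ZYX and MYH9, with MYO1E at -0.40. For VCL and FHL2 the intervals were -0.43 to -0.06 and -0.34 to 0.16, which hold small differences as well as differences of a size seen for other members.

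Without HRG, differences between silenced and control cells were small. With vehicle, 0 of 38 members were called with #1 or with #2 in limma, where 0.0285% and 0.181% of all probe sets were called in either direction, and at an unadjusted p under 0.05 there was 1 member with #1 and 6 with #2, where the shares of all probe sets were 11.8% and 13.7%. Differences ranged from -0.11 to 0.17 with #1 and from -0.21 to 0.32 with #2. At an adjusted p under 0.05 alone, MYO10 (-0.21, adjusted p = 0.0448) and PXN (-0.19, adjusted p = 0.0374) were lower with #2, as were 2.59% of all probe sets. NTC and parental cells with vehicle differed by between -0.24 and 0.18, with 0 members called in limma, 0% of all probe sets called, and 7 members at an unadjusted p under 0.05, where 5.72% of all probe sets were.

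The genes around this list in the pathway were counted in the same way. Of 90 such genes listed in 3 groups, 77 were measured, and in parental cells 8 were called higher and 4 lower, beside the shares of 2.86% and 2.41% of all probe sets. In NTC cells 6 were called higher and 3 lower (2.64% and 3.37% of all probe sets), and with #2, 3 were called higher and 1 lower (1.07% and 0.656%). Upstream of SRF, 4 of 26 genes were higher and 1 lower in parental cells. RND3 was higher by 1.65 (SE 0.12, n = 3 arrays per group, adjusted p = 5.44e-10), the kinase ROCK2 by 0.78, and the formin DIAPH1 by 0.65. In NTC cells the differences were 1.60, 0.58 and 0.66, and that of ROCK2 fell just under the fold threshold. SSH3, of the slingshot phosphatases of cofilin, was lower, at -0.63, and in NTC cells it was not called (-0.45). In the group of actins, Arp2/3 and WAVE, 1 of 23 genes was higher, ACTR3 of the Arp2/3 complex by 0.59, and 1 was lower, CYFIP2 of the WAVE complex, at -0.83. In NTC cells ACTR3 was not called (0.37) and CYFIP2 was (-0.65). Of 28 other plaque proteins, 3 were higher and 2 lower, with TNS4, a tensin, at 1.89 and LPP, a relative of zyxin, at 0.66, against SORBS2 at -1.22 and LPXN, a relative of paxillin, at -0.69, and these 4 were called in the same direction in NTC cells.

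Of these 77 genes, 7 were called lower and 1, SSH3, higher in the difference of HRG effects with #2, and 3 lower with #1. SSH3 was lower with HRG in the controls, so that its higher value is a weaker lowering with #2. The shares of all probe sets were 1.85% lower and 2.1% higher with #2 and 0.442% lower with #1. TNS4 had the largest difference with #2, -1.27 (SE 0.17, n = 3 arrays per group, adjusted p = 5.24e-05), followed by RND3 at -0.65 (adjusted p = 0.0124). All 3 genes called with #1 were also called with #2, among them LPP and ROCK2, at -0.55 and -0.26 with #1 and -0.40 and -0.45 with #2. DIAPH1 was the only one of the 77 called without HRG, lower at -0.59 with #2 (adjusted p = 2.25e-07), so that its lower HRG effect with #2 (-0.38) starts from a lower level.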

How the data were processed

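The authors hybridised 24 RNA samples of T-47D cells to Affymetrix Human Gene 1.0 ST arrays and deposited log2 values normalised by Robust Multichip Average (RMA), the version of which the sources used here do not give. RMA corrects background, brings the arrays to one distribution and compresses changes of dim probe sets. The annotation pairs 19292 of 28536 probe sets with 1 symbol, 1750 with several and 7494 with none here, and gives no genome build. Array columns were matched to samples by name, and 0 columns were left unused. Array medians were 6.04 to 6.18, and the 3 arrays per group limit the precision.

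Probe sets with a symbol were fitted in limma 3.58.1 (R 4.3.3) with one mean for each group and Benjamini-Hochberg adjustment over all 21042. Samples were grouped by their titles. A gene with several single-symbol probe sets (PXN and LASP1) is given by the brightest. On simulated arrays for HRG in parental cells the fit was tested on known changes. Alternatives comprised a replicate block, other filters, variance models, centring and thresholds, the Rank Products test of the methods, NTC cells alone as reference, the mean of probe sets and each array left out in turn. Members, lists, roles and tests were chosen with earlier results of these data known. Values of every array are given for SRF and for members called in both control groups, and other members by counts, by the largest effects of their role or where called elsewhere; other pathway genes called in parental cells are named up to 4 per list. Promoter windows are those of RefSeq (GRCh38.p14). The promoters printed are those of members called in both control groups that hold a box, and that of SRF, added after its values were seen. Protein sequences were not used here. Plots were drawn with matplotlib 3.10.9 (Python 3.11.15).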

Additional observations from a re-analysis of the deposited data

Results flagged for a closer look

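A total of 16 results were picked out because the effect of HRG differed between cell groups by a test of the difference itself (limma, adjusted p under 0.05). For #1 against the controls there was 1, MICAL2 at -0.68 on the log2 scale. For #2 against the controls there were 14. LMO7 differed by -0.82, MICAL2 by -0.76, MYO1E by -0.75, MYH9 and ZYX by -0.60 each, MYO10 by -0.51 and PDLIM5 by -0.50. VCL differed by -0.45, PDLIM7 by -0.44, CORO1C by -0.40, ENAH by -0.38, PXN by -0.34, DAAM1 by -0.32 and ACTN1 by -0.28. Between the duplexes, #2 against #1, LMO7 differed by -0.75. In each case the HRG effect was the lower one with the duplex named first. Groups of 3 arrays were too small for a test of single arrays that stand apart.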

How the results depend on the processing

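Counts of called members depended most on the fold threshold, without which 21 members were called for HRG in parental cells, 26 in NTC cells, 21 with #1 and 14 with #2. The count for the difference of HRG effects with #1, 1 member, was 3 without dim probe sets, 3 with trend and robust variance, 3 with each array centred on its median and 2 with NTC cells alone as reference. The count between the duplexes, 1 member, was 0 when the arrays of the comparison alone were fitted and 0 without the 4 arrays that stood apart, an alternative chosen after seeing the data, and the cause was not tested. With each array left out in turn, 10 to 12 members were called for HRG in parental cells, 11 to 12 in NTC cells, 8 to 9 with #1 and 4 to 5 with #2, 1 to 3 in the difference of HRG effects with #1, 11 to 15 in that with #2, 0 to 1 between the duplexes and 0 in the comparisons without HRG. Single members were recomputed 454 times under other alternatives and 1248 times without 1 array. Of these values 449 and 1226 kept their direction and their side of the threshold, 5 and 22 kept the direction and lost the call, and 0 reversed. The 3 arrays per group limit the precision.

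The main fit did not pair the arrays by replicate number. The correlation between same-numbered vehicle and HRG arrays ranged from -0.0532 to 0.388 and was not over 0.1 for every pair. Of the vehicle arrays, 2 matched an HRG array of another number better, and all others matched that of their own number best. Whether arrays of the same number share an effect was not tested further. With the replicate block 4 members were called in the difference of HRG effects with #1 in place of 1, and 15 with #2 in place of 14; in the HRG comparisons the counts with the block were 11 in parental cells, 12 in NTC cells, 9 with #1 and 4 with #2, as without it.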
